A study of Mus musculus with 8 samples.

Results

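The chloride intracellular channel (CLIC) family was examined in RNA sequencing of mouse CD8+ T cells. Its members were the 5 genes that the deposited count table lists under the symbols Clic1, Clic3, Clic4, Clic5 and Clic6, out of 55291 genes in all. The family was selected on the measured difference of Clic4 between the genotypes, which earlier results of these data had shown, so the genotype values of the members are given as a description, without a test. The study holds 8 libraries of polyadenylated RNA, 4 labelled WT and 4 titled ATF4 overexpression, whose genotype is given as ATF4 Tg/Tg. All came from spleens of naïve mice without a stated treatment, and CD8+ T cells were purified with a commercial magnetic isolation kit. The series design text calls the mice ATF4Tg/Tg or E8IcreATF4Tg/Tg, so whether the controls carry the transgene without Cre cannot be told, and WT stands here for the group so labelled. E8I is an enhancer of the Cd8a gene, and a Cre recombinase under its control acts mainly in mature CD8+ T cells. The labels give neither age nor sex, and nothing in them states that replicates were separate mice. P-values therefore measure only how these samples vary, and that variation may be technical.

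CLIC proteins have a fold related to the omega class of glutathione transferases and to glutaredoxins, and they exist both as soluble proteins and in membranes. CLIC1 and CLIC4 are found in most cell types, CLIC5 is known from the actin-rich stereocilia of the inner ear and the foot processes of podocytes, where it works with ezrin, and CLIC3 and CLIC6 are found in fewer tissues. CLIC4 has been described as a gene induced by p53 and as a protein that moves to the nucleus and prolongs TGF-beta signalling through SMAD proteins. ATF4 is the transcription factor of the integrated stress response, and with C/EBP partners it binds composite elements in genes of amino acid uptake and synthesis.

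The libraries held 93478686 to 125974143 estimated counts, and 17446 to 20338 genes had a count. Levels are given as CPM, counts relative to a library size scaled by TMM. As a floor for a gene at 0, 3 counts corresponded to 0.0240 to 0.0339 CPM. Levels of 0 were kept as 0 and not replaced by that floor. The names of the columns are written in 2 ways, one for replicates 1 and 2 (set 1) and another for replicates 3 and 4 (set 2) of each genotype, and libraries of the same set resembled each other. What separates the sets is not given in the sources used here. Atf4 was at 285, 308, 165 and 165 CPM in WT replicates 1 to 4 and at 445, 427, 228 and 212 CPM in ATF4 overexpression. The groups overlapped, both genotypes being lower in set 2, and the log2 difference of 0.51 ± 0.31 (SE) did not pass the edgeR test (adjusted p = 0.37). With the replicate number as a block it was 0.48 (adjusted p = 2.2e-04), and within set 1 and set 2 it was 0.59 and 0.41 (adjusted p = 0.0038 and 0.0046). Without the 4 libraries with few genes at low counts, described with the gene lists, the value for Atf4 turned to -0.11 (adjusted p = 0.86). Both ATF4 overexpression libraries of that fit were of set 2, while the WT libraries were 1 of each set.

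Clic4 was the member that set the genotypes apart. Clic4 (ENSMUSG00000037242.8, chromosome 4, 135213969 to 135272814, minus strand, GRCm38) stood at 23.6, 22.3, 28.6 and 28.2 CPM in the 4 WT libraries. In the 4 ATF4 overexpression libraries it stood at 249, 253, 279 and 278 CPM. Every ATF4 overexpression library was far above every WT library, a lack of overlap seen in 22.0% of tested genes, and in both genotypes the libraries of set 2 were the higher ones. These levels came from 2093 to 3432 estimated counts per WT library and 26752 to 34173 per ATF4 overexpression library. The group means were 25.7 ± 3.19 and 265 ± 16.0 CPM (SD, n = 4), a log2 difference of 3.36 ± 0.10 (SE), or 10.3-fold. Ranked by mean CPM among the 16630 tested genes, Clic4 moved from place 6397 in WT to place 663 in ATF4 overexpression.

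The stretch before the Clic4 start is shown because the known ATF4 element could be looked for there, with that of Asns, asparagine synthetase, a textbook ATF4 target, for comparison. Both come from the RefSeq promoter table on GRCm38.p6, which held 4 of the 5 members and not Clic6. Capitals mark the GC box (GGGCGG on either strand) in Clic4 at chr4:135272815-135273010 (minus strand) and the element TGATGNAA in Asns at chr6:7693214-7693243 (minus strand).
Clic4: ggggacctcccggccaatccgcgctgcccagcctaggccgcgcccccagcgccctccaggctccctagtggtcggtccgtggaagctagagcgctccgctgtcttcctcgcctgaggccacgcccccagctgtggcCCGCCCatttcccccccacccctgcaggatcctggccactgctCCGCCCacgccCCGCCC
Asns: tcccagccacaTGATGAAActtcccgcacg
Asns itself was higher in ATF4 overexpression by 9.10 ± 0.21 on the log2 scale (edgeR adjusted p = 1.1e-08). Windows of 300 bases, from 250 before to 50 after the start, were searched on both strands. TGATGNAA, the core of the C/EBP-ATF element, was found in 3.97% of 32851 promoter windows. Counted by gene, in any of its windows, it was found for 12 of 31 ATF4 target genes. A gene can have several windows, so the share of windows and the count of genes are of unlike units. The cyclic AMP element TGACGTCA was found in 1.79% of windows and the E-box CACGTG in 7.15%. The windows of Clic1, Clic3, Clic4 and Clic5 held none of the 3. That of Clic1 began at 35049993, after the GENCODE start of the gene (35049966), so it held no base before that start. The GC box, present in 35.7% of windows, occurred 4 times in the Clic4 window (3 of them in the stretch printed), 2 times in that of Clic5 and 1 time each in those of Clic1 and Clic3. These letters describe the windows only and say nothing of binding elsewhere in the gene.

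Clic1 (ENSMUSG00000007041.9, chromosome 17, 35049966 to 35058749, plus strand) was abundant in both genotypes. It stood at 223, 235, 244 and 238 CPM in WT and at 201, 207, 259 and 256 CPM with ATF4 overexpression. The 2 groups overlapped, with the ATF4 overexpression libraries of set 1 lowest and those of set 2 highest of all 8. The means were 235 ± 9.17 and 231 ± 30.9 CPM (SD, n = 4), a log2 difference of -0.03 ± 0.10 (SE), whose sign changed between settings (-0.13 to 0.10). Clic1 kept about the same rank, place 799 in WT and 780 in ATF4 overexpression.

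Clic5 (ENSMUSG00000023959.9, chromosome 17, 44188584 to 44280172, plus strand) was near the limit of what was tested. WT libraries had 0.0904, 0.268, 0.567 and 0.996 CPM, from 8, 27, 68 and 121 estimated counts. ATF4 overexpression libraries had 0.753, 0.547, 1.15 and 0.619 CPM, from 94, 58, 141 and 74 estimated counts. The groups overlapped, and the log2 difference of 0.67 ± 0.67 (SE) was no larger than its error. It was 1.88 ± 1.01 within set 1 and 0.18 ± 0.51 within set 2, the 2 WT libraries of set 1 being the lowest of all.

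Clic3 (ENSMUSG00000015093.15, chromosome 2, 25456838 to 25458776, plus strand) and Clic6 (ENSMUSG00000022949.9, chromosome 16, 92485736 to 92541243, plus strand) were below the count filter and were not tested. Clic3 had 0, 6, 14 and 1 estimated counts in WT and 26, 0, 10 and 0 in ATF4 overexpression, with zeros and non-zeros in both groups. It overlaps Paxx on the other strand, and since no strand setting is given, reads of the pair cannot be told apart. Clic6 had 0 counts in 7 libraries and 7 in ATF4 overexpression replicate 2, and it overlaps 2410124H12Rik on the same strand. Of the 5 members, 3 passed the filter and 1, Clic4, was past the threshold of an adjusted p of 0.05, against 14.1% of all tested genes (9.16% higher and 4.89% lower). Nothing is read from that count, since the same contrast chose the family.

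**Figure D1:**
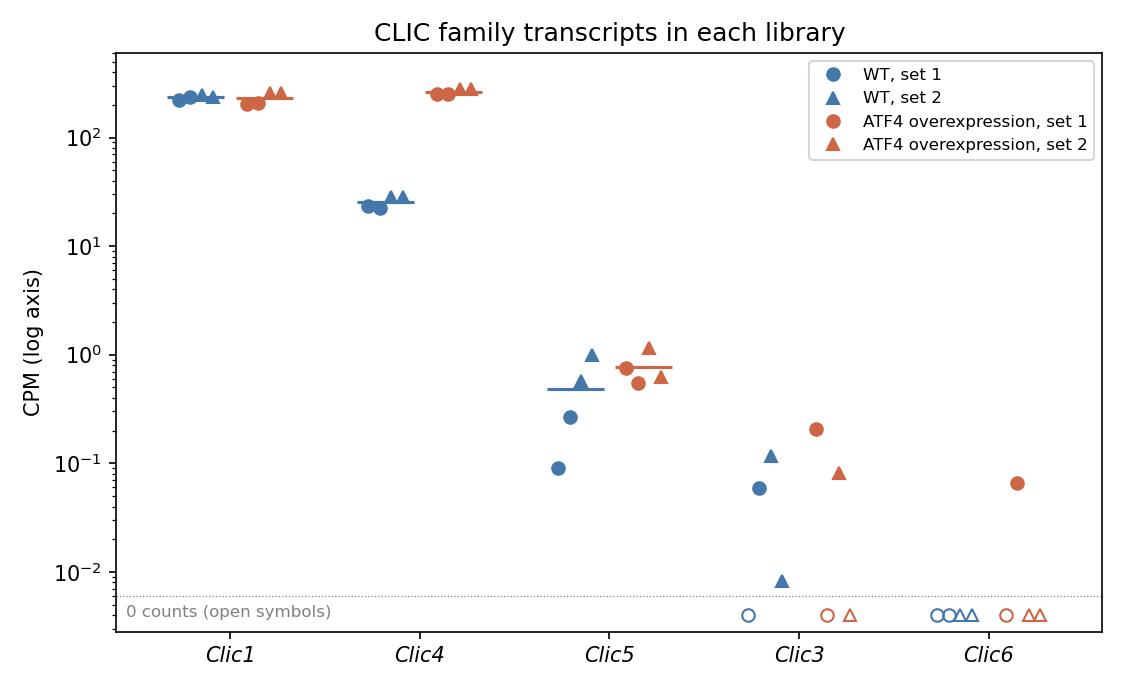
Level of each CLIC gene in the 8 libraries, in CPM on a log axis, with points for single libraries by genotype and set, bars for the group means of the 3 tested genes, and open symbols for 0 counts. Clic4 lay between 22.3 and 28.6 CPM in WT and between 249 and 279 CPM with ATF4 overexpression, while Clic1 overlapped between the genotypes.

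Because the members differ in length, their levels were set against each other as CPM per kilobase of exon. Clic1 led in both genotypes, with 131 ± 5.09 CPM per kilobase in WT and 128 ± 17.2 in ATF4 overexpression (SD, n = 4). Clic4 was second, with 3.91 ± 0.486 in WT and 40.3 ± 2.43 in ATF4 overexpression. In every library Clic1 lay above Clic4, but the ratio of Clic1 to Clic4 per kilobase was 33.8 ± 3.55 in WT and 3.17 ± 0.235 in ATF4 overexpression. Clic5 followed at 0.0547 ± 0.0451 and 0.0874 ± 0.0307 CPM per kilobase, and Clic3 at 0.0456 ± 0.0533 and 0.0716 ± 0.0972. Clic5 and Clic3 did not differ beyond their spread, and Clic6 came last, at 0 in every WT library.

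The makeup of the family differed between the genotypes. Clic4 made up 9.59%, 8.65%, 10.4% and 10.5% of the estimated counts of the 5 members in WT. In ATF4 overexpression it made up 55.2%, 54.9%, 51.8% and 52.0%. The groups lay far apart, and each library's 95% Wilson interval, which covers counting error only, was 0.662 to 0.883 percentage points wide. The group means were 9.81% ± 0.882 and 53.5% ± 1.84 (SD, n = 4). Clic1 held the remainder, 90.0% ± 0.993 in WT and 46.4% ± 1.84 in ATF4 overexpression, and Clic3, Clic5 and Clic6 together held 0.197% ± 0.147 and 0.173% ± 0.0564. The summed level of the family was 261 ± 11.9 CPM in WT and 496 ± 46.9 CPM with ATF4 overexpression. Counted per kilobase of exon, the share of Clic4 was 2.90% ± 0.282 and 24.0% ± 1.34, so whether Clic4 or Clic1 led in ATF4 overexpression depended on the correction for length.

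**Figure D2:**
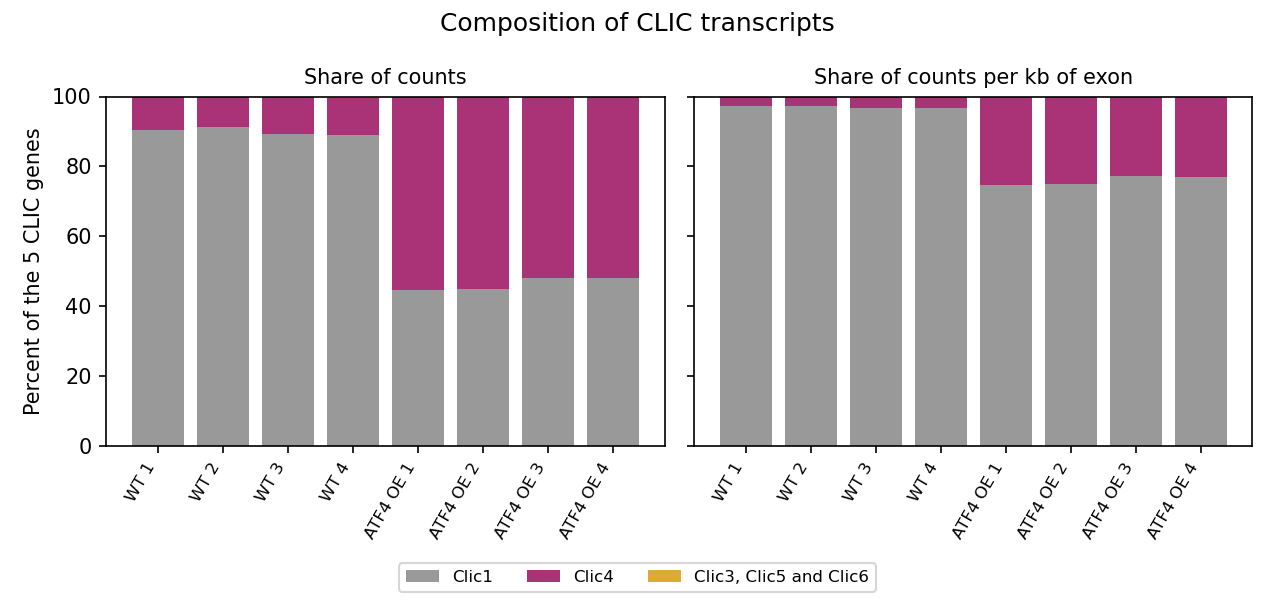
Share of Clic1, Clic4 and the other 3 genes in the summed counts of the family, in percent, for each of the 8 libraries (OE, overexpression), from the counts (left) and per kilobase of exon (right). Clic4 held 8.65% to 10.5% of the counts in WT and 51.8% to 55.2% in ATF4 overexpression, and Clic3, Clic5 and Clic6 are too small to be seen.

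The difference between the library sets did not enter the choice of the family and could be tested. Clic4 was higher in set 2 than in set 1 by 0.23 ± 0.05 on the log2 scale (SE, edgeR adjusted p = 0.010), with set means of 23.0 and 28.4 CPM in WT and 251 and 279 CPM with ATF4 overexpression. Clic1 was higher in set 2 by 0.21 ± 0.06 (edgeR adjusted p = 0.031), with set means of 229 and 241 CPM in WT and 204 and 257 CPM with ATF4 overexpression. For comparison, 23.5% of tested genes were called between the sets, and 12.2% were called higher in set 2. The Clic4 call was lost without WT replicate 3 (adjusted p = 0.076). The Clic1 call was lost without WT replicate 3 or any 1 of the ATF4 overexpression replicates (adjusted p = 0.059 to 0.099). Clic5 differed between sets by 1.25 ± 0.58 and did not pass (adjusted p = 0.15).

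Whether the genotype difference itself varied between sets was tested as an interaction, called for 0.998% of tested genes. No member passed it. The interaction was 0.26 ± 0.09 on the log2 scale for Clic1 (edgeR adjusted p = 0.25, unadjusted p = 0.014), -0.16 ± 0.09 for Clic4 (adjusted p = 0.52) and -1.67 ± 1.02 for Clic5 (adjusted p = 0.56). Within set 1 and set 2 the genotype difference of Clic4 was 3.48 ± 0.09 and 3.29 ± 0.06, and that of Clic1 was -0.13 ± 0.08 and 0.09 ± 0.05.

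**Figure D3:**
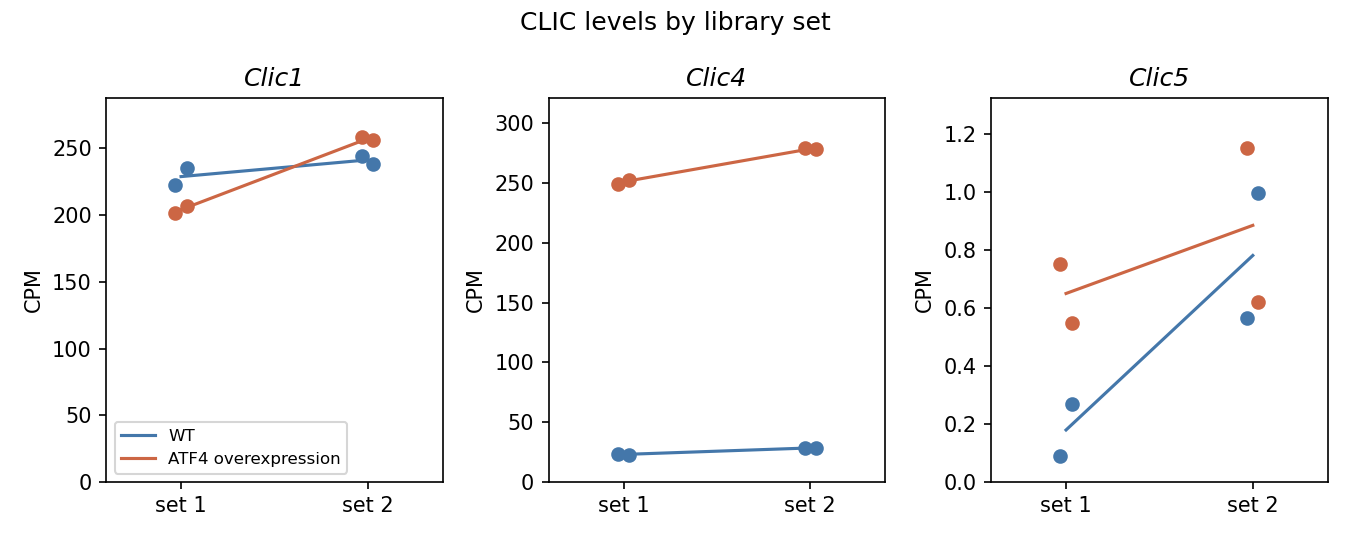
Level of Clic1, Clic4 and Clic5 in CPM by library set, with points for single libraries and lines joining the means of the 2 libraries per set and genotype. The lines for Clic4 run from 23.0 to 28.4 CPM for WT and from 251 to 279 CPM for ATF4 overexpression, and those for Clic1 cross.

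The genes whose profile over the 8 libraries was most like that of Clic4 were taken from the 8402 tested genes that averaged 10 CPM or more, by the root mean square difference of centred log2 CPM. Sesn2, a stress-induced inhibitor of mTORC1 signalling, was nearest with a difference of 0.104, and went from 4.23 to 44.2 CPM. Eif4ebp1, a repressor of cap-dependent translation, followed with 0.107, and went from 4.36 to 44.9 CPM. Their log2 differences were 3.38 ± 0.16 and 3.36 ± 0.11. Next came Slc7a5 (0.278), a carrier of large neutral amino acids, Pck2 (0.299), the mitochondrial phosphoenolpyruvate carboxykinase, Cars (0.302), the cysteinyl-tRNA synthetase, and Cbfa2t3 (0.308), a transcriptional corepressor. Atf5 (0.327), a transcription factor related to ATF4, and Syk (0.336), a tyrosine kinase of B cell and myeloid receptors, closed the list of 8. The ranking uses the genotype contrast on which the family was selected, so it is a description and supports nothing. Sesn2, Eif4ebp1, Cbfa2t3, Atf5 and Syk had WT means of 2.00 to 5.76 CPM and reached the mean of 10 CPM only through ATF4 overexpression. The measure reflects mainly the size of the genotype difference, which for these 8 genes ran from 2.91 (Syk) to 3.90 (Slc7a5).

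**Figure D4:**
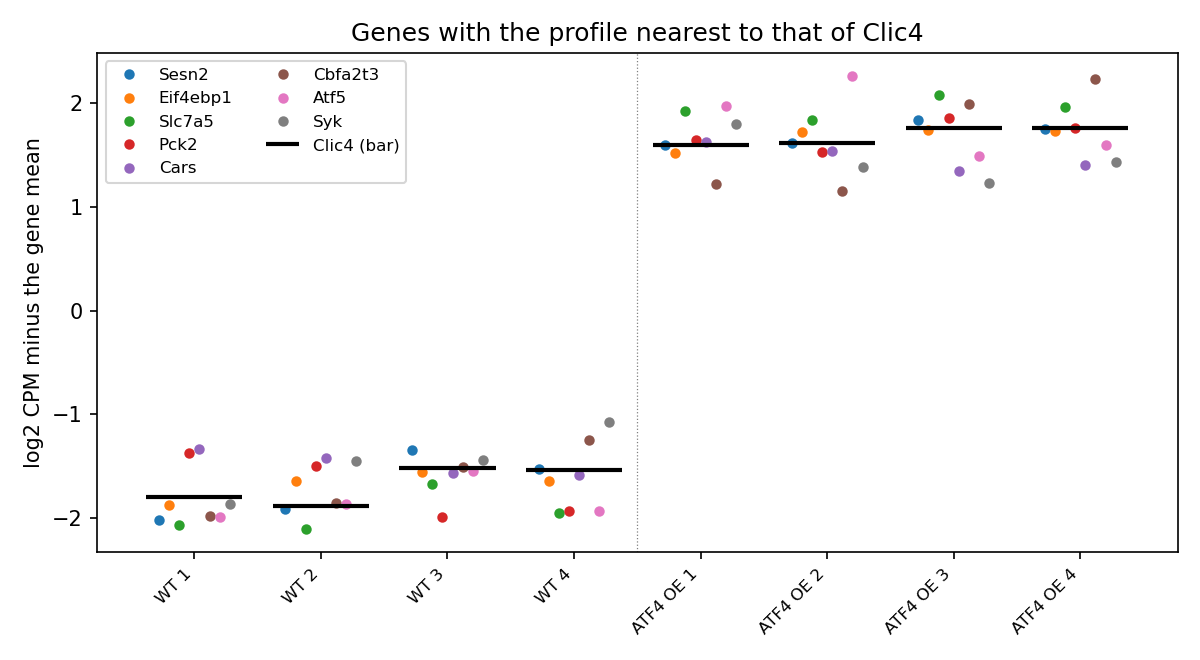
Log2 CPM minus the gene mean in each of the 8 libraries (OE, overexpression), with a black bar for Clic4 and points for the 8 genes with the most similar profile. Sesn2 and Eif4ebp1 lay nearest to Clic4, with root mean square differences of 0.104 and 0.107.

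Known ATF4 target genes were mostly higher in ATF4 overexpression. Of 36 tested genes of the list, 33 were higher in ATF4 overexpression and 0 lower, against 9.16% of all tested genes called higher. The median log2 difference of the list was 3.37, beside -0.02 over all tested genes. Trib3, a pseudokinase that restrains ATF4, differed by 5.84, Slc7a5 by 3.90 and Shmt2, the mitochondrial serine hydroxymethyltransferase, by 2.44.

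The differences of the genes next to Clic4 were small beside its own. Runx3, a transcription factor of CD8+ T cells whose nearest end lies 36.0 kilobases away (chromosome 4, 135120652 to 135177990), stood at 149 ± 19.4 CPM (WT) and 167 ± 40.2 CPM (ATF4 overexpression; log2 difference 0.16 ± 0.16, edgeR adjusted p = 0.61). Syf2, of the splicing machinery, differed by -0.11 (adjusted p = 0.69). On the other side Srrm1, a splicing factor, differed by 0.02 (adjusted p = 0.97). Rcan3, a regulator of calcineurin, was lower at 24.7 against 32.1 CPM (-0.38 ± 0.11, adjusted p = 0.048), and so was Rsrp1, beyond Syf2, at 514 against 629 CPM (-0.29 ± 0.08, adjusted p = 0.039). Both calls were lost in 7 of 8 fits that left out 1 library (adjusted p = 0.064 to 0.12 for Rcan3, kept without ATF4 overexpression replicate 3, and 0.054 to 0.12 for Rsrp1, kept without ATF4 overexpression replicate 1). They were also lost with upper-quartile scaling (adjusted p = 0.060 and 0.056) and with no filter on low counts (adjusted p = 0.064 and 0.054).

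Clic4, Clic5 and Clic6 each lie near a RUNX and an RCAN gene, an arrangement of related genes shared by the 3 loci. Runx2, a RUNX factor best known from bone, lies 216 kilobases from Clic5 and stood at 19.3 CPM (WT) and 27.6 CPM (ATF4 overexpression; 0.52 ± 0.16, edgeR adjusted p = 0.066). With the replicate block the difference was 0.48 (adjusted p = 0.019). Within set 1 it was 0.79 (adjusted p = 0.0036), and within set 2 it was 0.21 and did not pass (adjusted p = 0.18). Runx1, a RUNX factor of blood cells, lies 60.2 kilobases from Clic6 and stood at 50.8 and 54.0 CPM (0.09, adjusted p = 0.66). Rcan1, 14.9 kilobases from Clic6, stood at 6.94 and 8.13 CPM (0.23, adjusted p = 0.30), and Rcan2 was not tested. Beside Clic1, at a gap of 0.285 kilobases, Ddah2, a relative of the enzyme that breaks down methylated arginine, stood at 0.665 CPM (WT) and 2.23 CPM (ATF4 overexpression; 1.74 ± 0.45, adjusted p = 0.028). That call was lost in 5 of 8 fits that left out 1 library, namely replicate 1, 3 or 4 of WT and replicate 3 or 4 of ATF4 overexpression (adjusted p = 0.051 to 0.088).

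**Figure D5:**
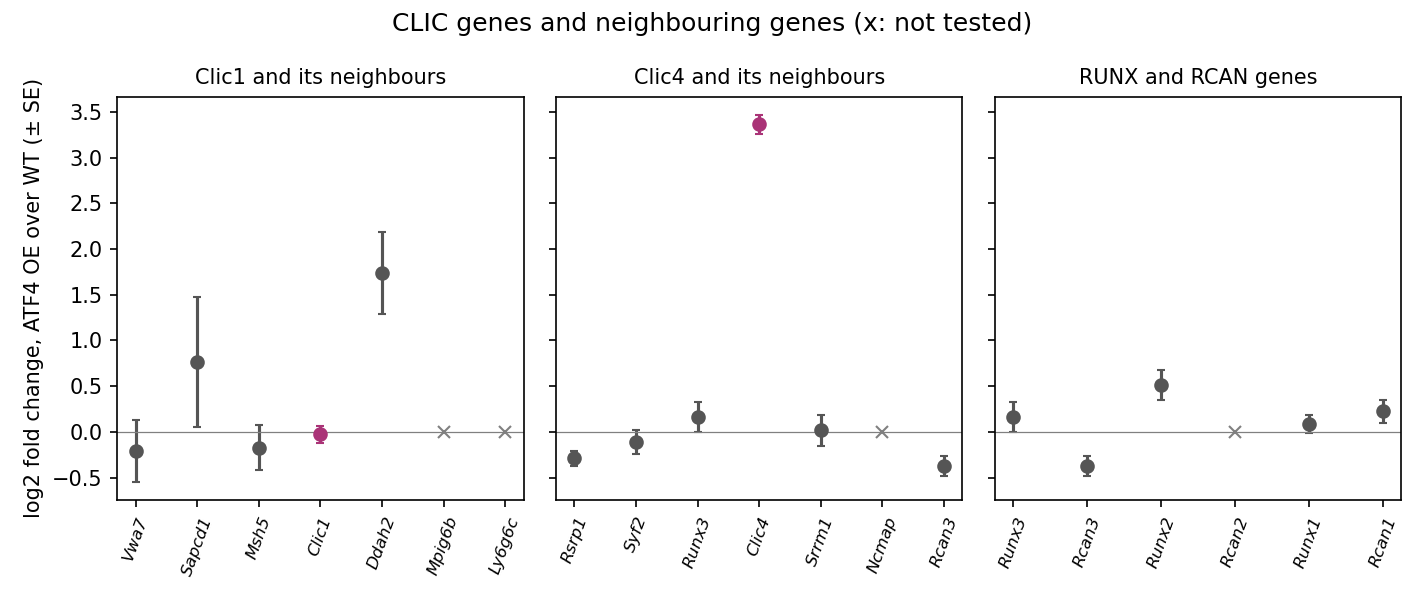
Genotype difference, as log2 fold change of ATF4 overexpression (OE) over WT with its standard error, of Clic1 and Clic4 with the protein-coding genes on either side and of the RUNX and RCAN genes near CLIC loci; crosses at 0 mark genes that were not tested. Clic4 stands at 3.36, and its nearest plotted neighbour Runx3 at 0.16.

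Of 19 tested chloride channel genes outside the family, 3 were higher in ATF4 overexpression and 0 lower, with a median of -0.11. The called share, 15.8%, was near the 14.1% of all tested genes. Ttyh2, of the tweety family of anion channels, went from 0.694 to 2.14 CPM (1.62 ± 0.34, edgeR adjusted p = 0.010), a call lost within set 1 (adjusted p = 0.14). Lrrc8a, the obligatory subunit of the volume-regulated anion channel, went from 55.4 to 70.1 CPM (0.34 ± 0.09, adjusted p = 0.037), and its partner Lrrc8d from 21.0 to 27.9 CPM (0.41, adjusted p = 0.042). Each lost its call in 6 of 8 fits that left out 1 library (adjusted p = 0.061 to 0.11 for Lrrc8a, kept without replicate 3 of WT or replicate 1 of ATF4 overexpression, and 0.065 to 0.13 for Lrrc8d, kept without ATF4 overexpression replicate 1 or 2). Lrrc8d also missed the threshold with limma-voom (adjusted p = 0.051). With the replicate block, which called 27.2% of all tested genes, the counts were 3 higher and 4 lower, and Lrrc8c, another subunit, was among the lower ones (-0.25, adjusted p = 0.0094).

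Of 12 tested cation-chloride cotransporters and their kinases, 1 was higher and 0 lower (8.33%, beside 14.1% of all tested genes), with a median of 0.09. It was Stk39, a kinase that activates such cotransporters (11.5 to 17.4 CPM, 0.60, edgeR adjusted p = 0.028), whose call was lost in 5 of 8 fits that left out 1 library and kept without replicate 4 of WT or replicate 1 or 2 of ATF4 overexpression (adjusted p = 0.059 to 0.092 where lost). Slc12a7, a potassium-chloride cotransporter, stood at 693 and 537 CPM (-0.37, adjusted p = 0.072), and passed with the replicate block (-0.38, adjusted p = 7.9e-04). With that block 1 gene of the list was higher and 1 lower, beside 27.2% of all tested genes called.

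Glutathione transferases and glutaredoxins share their fold with the CLIC proteins. Of 22 tested genes 6 were higher and 2 lower (36.4%, beside 14.1% of all tested genes), with a median of 0.18. With the replicate block, which called 27.2% of all tested genes, 6 were higher and 3 lower. Gstm1 went from 1.66 to 6.47 CPM (1.96 ± 0.23, edgeR adjusted p = 5.0e-04) and Gstm5 from 0.378 to 6.64 CPM (4.14, adjusted p = 0.0054). The Gstm5 difference was 5.18 within set 2 and 2.83 within set 1, where it did not pass (adjusted p = 0.062). Gstm1 and Gstm5 are mu class transferases, which are closely related in sequence, so Salmon may divide reads between them. Eef1g, a translation elongation factor with a transferase-like domain, was lower at 742 against 1087 CPM (-0.55 ± 0.09, adjusted p = 0.0028), and Gstt2 at 26.4 against 35.5 CPM (-0.42, adjusted p = 0.018). The Gstt2 call did not hold once WT replicate 3 or replicate 4 of ATF4 overexpression was left out (adjusted p = 0.056 to 0.059).

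Among 17 tested genes of ezrin, radixin and moesin proteins and of trafficking partners of CLIC proteins, 3 were higher and 0 lower (17.6%, beside 14.1% of all tested genes), with a median of -0.07. With the replicate block, which called 27.2% of all tested genes, 3 were higher and 4 lower. Itgb1, the integrin beta 1 chain with whose trafficking CLIC4 has been linked, went from 115 to 210 CPM (0.87 ± 0.15, edgeR adjusted p = 0.0043). Tgm2, transglutaminase 2, went from 0.492 to 3.27 CPM (2.74, adjusted p = 0.0024). Podxl, podocalyxin, was at 0 in WT replicates 1, 3 and 4, at 0.109 CPM in WT replicate 2 and at 0.321 to 1.05 CPM in ATF4 overexpression. It passed narrowly (adjusted p = 0.049), and its fitted log2 difference of 4.65 moved to 9.33 without WT replicate 2, so neither value gives its size. The call was lost in the other 7 fits that left out 1 library. Ezrin itself, Ezr, stood at 493 and 429 CPM (-0.20, adjusted p = 0.19).

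Of 18 tested TGF-beta pathway genes 4 were higher and 0 lower (22.2%, beside 14.1% of all tested genes), with a median of 0.01. With the replicate block, which called 27.2% of all tested genes, 4 were higher and 3 lower. Smad3, the receptor-activated signal carrier, went from 83.9 to 109 CPM (0.38 ± 0.07, edgeR adjusted p = 0.0070), Hivep3, also called Schnurri-3, from 14.7 to 22.0 CPM (0.59 ± 0.11, adjusted p = 0.0068), and Tgfbi, a secreted TGF-beta induced protein, from 1.25 to 9.69 CPM (2.95, adjusted p = 0.0080). Tgfb1, the ligand, went from 93.8 to 115 CPM (0.29, adjusted p = 0.027), a call lost in 5 of 8 fits that left out 1 library, namely replicate 1, 3 or 4 of WT and replicate 2 or 4 of ATF4 overexpression (adjusted p = 0.053 to 0.084). Of 18 tested p53 targets, 2 were higher and 1 lower, with a median of -0.08. That share, 16.7%, was near the 14.1% of all tested genes. With the replicate block 3 were higher and 5 lower, beside 27.2% of all tested genes called. Bbc3, the cell death gene PUMA, went from 19.6 to 46.0 CPM (1.23, adjusted p = 0.0017), Cdkn1a, the cell cycle inhibitor p21, from 0.458 to 2.05 CPM (2.16, adjusted p = 0.0034), and Rrm2b, a ribonucleotide reductase subunit, was lower at 30.6 against 43.5 CPM (-0.51, adjusted p = 0.0018).

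Some of the calls above did not hold within a single library set, where 2 libraries met 2. Within set 1 the calls of Ttyh2, Lrrc8d, Gstm5, Gstt2, Podxl, Tgfb1, Ddah2, Rcan3 and Rsrp1 were lost (adjusted p = 0.062 to 0.34), and within set 2 those of Lrrc8a (adjusted p = 0.053) and Rcan3 (adjusted p = 0.12).

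A further fit left out the 4 libraries with few genes at low counts, WT replicates 1 and 4 and ATF4 overexpression replicates 1 and 2. It compared WT replicate 2 of set 1 and WT replicate 3 of set 2 with 2 ATF4 overexpression libraries that were both of set 2, so genotype and library set cannot be fully told apart in it. Clic4 differed by 3.45, and 9.23% of all tested genes were called. The count of higher and lower genes then was 1 and 0 for chloride channels, 1 and 1 for cotransporters, and 4 and 0 for glutathione transferases. It was 2 and 0 for trafficking partners, 1 and 0 for TGF-beta genes, and 1 and 1 for p53 targets. Of the genes of those lists named above, Ttyh2 (adjusted p = 0.11), Lrrc8a (0.17), Eef1g (0.062), Gstt2 (0.13), Podxl (0.14), Smad3 (0.070), Hivep3 (0.098), Tgfb1 (0.22), Cdkn1a (0.080) and Rrm2b (0.053) no longer passed. Nor did the neighbours Ddah2 (0.052), Rcan3 (0.17) and Rsrp1 (0.18), while Slc12a7 passed (-0.61, adjusted p = 0.033).

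Markers of other spleen cells moved with the genotype. In these bulk libraries, fewer cells of a type and less RNA per cell cannot be told apart. The defining CD8+ T cell genes were present in all libraries, Cd8a at 1395 ± 106 CPM in WT and 1085 ± 73.8 CPM with ATF4 overexpression. Of all tested genes, 9.16% were called higher and 4.89% lower. In either direction, 27.2% were called with the replicate block and 9.23% without the 4 libraries named above. Of 16 T cell identity genes 0 were higher and 7 lower, with 13 lower under the replicate block and 0 lower without those 4 libraries. Their summed level was 11408 to 12012 CPM in WT and 9346 to 10029 CPM with ATF4 overexpression. Of 18 myeloid markers 11 were higher and 0 lower, with a median log2 difference of 2.57, and their summed level was 28.7 to 86.9 CPM in WT and 182 to 354 CPM with ATF4 overexpression. The 2 most abundant did not pass the edgeR test on group alone. Lyz2 went from 22.9 to 96.8 CPM (adjusted p = 0.26) and Mpeg1 from 5.85 to 30.3 CPM (adjusted p = 0.057). Both passed with the replicate block (adjusted p = 0.021 and 9.9e-06). Of 10 platelet markers 7 were higher and 0 lower, with a median of 2.91, and their summed level was 26.9 to 37.0 CPM in WT and 70.1 to 85.9 CPM with ATF4 overexpression. The myeloid, platelet and endothelial sums were higher in set 2 than in set 1 in both genotypes. The stromal sum was higher in set 2 with ATF4 overexpression. In WT it was 287 and 287 CPM in set 1 and 301 and 287 CPM in set 2. The sums of B cell, dendritic cell and CD4 T cell markers were lower in set 2 in both genotypes. Those of natural killer cell and erythroid markers went opposite ways in WT and ATF4 overexpression. The T cell identity sum was lower in set 2 with ATF4 overexpression and overlapped between the sets in WT. Within ATF4 overexpression the highest library exceeded the lowest 1.12-fold in Clic4. The ratio was 1.15 for the endothelial sum and 1.07 for the T cell identity sum. It was 1.20 for the stromal sum, 1.22 for the platelet sum, 1.95 for the myeloid sum and 2.42 for the erythroid sum. The B cell, natural killer cell, dendritic cell and CD4 T cell sums had ratios between those of the platelet and erythroid sums. The part of other spleen cells in the level of Clic4 was not tested.

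The summed levels of erythroid markers (85.7 to 120 CPM against 156 to 379 CPM, 8 of 12 higher, median 2.59) and dendritic cell markers (69.3 to 88.4 against 116 to 237, 3 of 12 higher, median 1.87) did not overlap between WT and ATF4 overexpression either. Neither did those of CD4 T cell markers (56.9 to 73.5 against 93.0 to 131, 4 of 7 higher, median 0.67) and of stromal markers (287 to 301 against 389 to 468, 3 of 4 higher, median 1.58). The stromal sum was carried by Vim, with Lum, Pdgfra and Ccl19 at 0 in all libraries. In WT the erythroid sum was mostly Tfrc (88.0 CPM, and 83.6 CPM with ATF4 overexpression). The sums of 3 lists overlapped while their median genes were higher, 1 or 2 abundant genes making up most of each sum in WT. B cell markers summed to 623 to 834 against 678 to 1200 CPM, mostly Ighm (624 and 582 CPM), while 8 of 14 genes were higher and the median was 2.33. Natural killer cell markers summed to 433 to 578 against 477 to 856 CPM, with Txk (184 and 150 CPM) and Eomes (104 and 101 CPM) as the main genes, while 3 of 12 were higher, 1 was lower and the median was 1.67. Endothelial markers summed to 171 to 198 against 155 to 178 CPM, mostly Pecam1 (147 and 115 CPM) and Eng (40.2 and 43.7 CPM), while 5 of 12 were higher, 1 was lower and the median was 2.94. Among all tested genes 9.16% were called higher, and 27.2% were called in either direction with the replicate block. With that block 12 B cell and 0 natural killer cell markers were higher. Without the 4 libraries named above, 11 myeloid, 8 erythroid and 5 endothelial markers were called higher, and 4 platelet, 2 stromal, 1 CD4, 1 B cell, 0 dendritic and 0 natural killer cell markers. Their part in the family's levels was not tested.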

How the data were processed

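RNA was sequenced as paired ends from TruSeq mRNA libraries of 8 samples, per the labels' protocols. The table the authors deposited gives estimated counts by gene symbol, from Salmon on GRCm38.p6 per the submitters' processing notes. The sources used here do not give strand setting, annotation release or filters. Between 6.30% and 7.92% of values per library were not whole, and counts were rounded before testing. Intervals and floors cover counting error only. Libraries of the same group differed by a chi-square per degree of freedom of at least 41.2, so none was taken as a repeat.

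The genotype test was the quasi-likelihood test in edgeR 4.0.16 (R 4.3.3), fitted on group alone, with TMM scaling, filterByExpr and robust dispersions. Of 55291 genes, 16630 were tested (30027 had no count), with Benjamini-Hochberg adjustment over all of them and a threshold of 0.05. Library set was tested in a model of group and set, and its interaction with genotype in a separate model that added the interaction term. The script was tested on simulated data. Alternatives were DESeq2 1.42.0, limma 3.58.1, other scalings and filters, blocks, single library sets and each library left out. Positions and lengths come from GENCODE M21.

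Members, gene lists and tests were chosen with earlier results of these data known. Named genes were Atf4, the members, up to 4 genes per list with the smallest p-values, the RUNX and RCAN genes, up to 3 protein-coding neighbours on each side, the 2 most abundant markers per cell type list, and the 8 genes most like Clic4. Asns, Ezr, Lrrc8c, Slc12a7 and Cd8a are named where a result turns on them. Same-numbered samples of the genotypes deviated together (r of 0.199 to 0.289 in 4 pairs). Differently numbered samples of the same set did so about as much (r of 0.157 to 0.254). These correlations cannot tell pairing by number from library set, so the replicate block rests on an assumed pairing.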

Additional observations from a re-analysis of the deposited data

Results flagged for a closer look

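Groups of 4 libraries were screened for a library far from the other 3. Of 148 combinations of genotype with a gene level or with the Clic4 share, 6 stood out. Groups without any spread were counted but could not stand out. Chance alone gives about 1 group in 20. In ATF4 overexpression, Clic6 was 0.0661 CPM in replicate 2 and 0 in the others, Tgm2 reached 4.22 CPM in the highest library and Eif4ebp1 was lowest at 40.2 CPM. In WT, Slc12a4 was lowest at 19.7 CPM, Podxl was highest at 0.109 CPM and Vim was highest at 299.5 CPM.

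For 3 named genes the genotype difference itself differed between library sets by edgeR's interaction test. Itgb1 differed by 1.25 on the log2 scale in set 1 and 0.59 in set 2 (interaction -0.63 ± 0.10 SE, adjusted p = 0.021). Car1, an erythroid carbonic anhydrase, differed by 3.64 and 5.70 (interaction 2.09 ± 0.34, adjusted p = 0.039), and Pck2 by 3.06 and 3.78 (interaction 0.75 ± 0.11, adjusted p = 0.017).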

How the results depend on the processing

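Clic4 kept its direction under every alternative run, with log2 differences of 3.29 to 3.48, while Clic1 stayed within -0.13 to 0.10 and Clic5 within 0.18 to 1.88. Over all genes, 2337 were called between genotypes, 65.2% of them higher in ATF4 overexpression. With the replicate block the count was 4516 (50.5% higher), with library set as a block 4254 (54.7% higher) and within set 2 alone 3799. Leaving out 1 library gave 1607 to 2088 calls, and DESeq2 gave 3442. Without the 4 libraries with fewer than 1000 genes at counts of 1 to 3, a choice made after seeing the data, 1583 were called (79.0% higher). That fit held 2 libraries per genotype, with ATF4 overexpression from set 2 only, so its calls may also reflect library set. The interaction of genotype and set was called for 166 genes, for 726 without the filter on low counts and for 56 to 204 with 1 library left out. The share of Clic4 in the family was 2.90% in WT and 24.0% in ATF4 overexpression per kilobase of exon, and 3.73% and 29.1% per kilobase of the longest coding transcript, the latter also added after seeing the data. The planned fit without libraries that lacked low counts, by a rule relative to the median, was not run because the rule selected 0 libraries. Depth limits Clic3, Clic5 and Clic6, whose counts per library were 141 or fewer. Where a cause is not given above, the cause was not tested.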
